A study of Mus musculus with 8 samples.

Results

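The cornified envelope is the protein and lipid shell that replaces the plasma membrane of a keratinocyte as it dies at the skin surface. The genes for its proteins were taken by symbol: every gene beginning with Lce or Sprr, together with the S100-fused genes Flg, Flg2, Hrnr, Rptn and Crnn and the single genes Lor, Ivl, Kprp, Cnfn, Cdsn, Casp14, Asprv1, Ppl and Evpl. The rule found 49 of the 18540 genes in the table, and all 49 had enough counts to be tested. They fell into 14 Lce1 genes, 6 Lce3 genes, Lce6a, 2 Sprr1 genes, 10 Sprr2 genes, Sprr3, Sprr4, 5 S100-fused genes and 9 single genes.

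RNA came from mouse wound skin, 4 control samples and 4 samples treated with Z1C2Z. The titles call the treated samples shiyan, the study's methods for the sequencing name the treatment only as ZCZ, and Z1C2Z is its name in the study's own sample names, whose numbers match the titles. Z1C2Z is the version of ZCZ (ZnO2 and CeO2 particles held in the zinc imidazolate framework ZIF-8) with more CeO2 relative to ZnO2, and the stated dose was 100 μg/kg, injected at the wound edge. Controls received PBS, and treatment lasted 15 days in both groups. The samples kept the numbers of their titles, which are 1, 2, 3 and 5 for the controls and 1, 2, 4 and 5 for the treated samples (control-1, Z1C2Z-4 and so on), and values are listed in that order throughout. Both C57BL and db/db mice were wounded in the study, and neither the strain, age and sex of the sequenced mice nor which samples came from the same mouse was given in the sources used here. The p-values therefore measure the spread between these samples, which may be partly technical, and in bulk tissue fewer cells of a type and less RNA per cell cannot be told apart.

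Each library held between 28856790 and 38974888 counts, of which the 49 genes took 0.453% to 0.727%. The tissue was epidermis-bearing skin by its markers: the basal keratins Krt5 and Krt14 stood at 1590 to 2251 and 1972 to 4042 CPM (counts scaled to the library size after TMM normalization), and the suprabasal keratins Krt1 and Krt10 at 2884 to 5410 and 2360 to 7189 CPM. The largest principal component of all genes (62.2% of the variance) set Z1C2Z-2 and Z1C2Z-4 farthest from the controls, while Z1C2Z-5 lay nearest to them. Values without Z1C2Z-2 and Z1C2Z-4 are given for the members that passed and for several of the Sprr and Lce genes. Leaving out the samples farthest from the controls tends by construction to shrink differences, and fewer samples raise the adjusted p. A weaker value in such a fit is therefore not a result about the members.

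Envelope assembly begins beneath the membrane, where envoplakin (Evpl), periplakin (Ppl) and involucrin (Ivl) form a scaffold that is anchored to desmosomes and keratin filaments. Transglutaminases then cross-link loricrin (Lor), the main reinforcing protein, with small proline-rich proteins (Sprr), which act as bridges, and with late cornified envelope proteins (Lce). Filaggrin packs the keratin filaments, it and its S100-fused relatives are built into the shell, and Casp14 and Asprv1 help to process filaggrin. Of the 49 genes, 43 lie on chromosome 3 in the epidermal differentiation complex, a cluster of genes that are switched on together in late differentiation. Asprv1, Cnfn, Casp14, Evpl, Ppl and Cdsn lie elsewhere, on chromosomes 6, 7, 10, 11, 16 and 17.

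The 250 bases upstream of the RefSeq start (GRCm38.p6) are shown for 6 genes on which the results turn. Crnn and Sprr2a1 were the members that passed the test with the larger changes, Sprr2d and Lce6a were next by adjusted p, and Sprr1a and Sprr1b, on either side of Sprr3, had values that differed in direction. Capitals mark the TATA box letters TATAAA and the AP-1 letters TGANTCA, searched on both strands, so TTTATA is the former read on the other strand.
Crnn, chr3:93144539-93144788, + strand: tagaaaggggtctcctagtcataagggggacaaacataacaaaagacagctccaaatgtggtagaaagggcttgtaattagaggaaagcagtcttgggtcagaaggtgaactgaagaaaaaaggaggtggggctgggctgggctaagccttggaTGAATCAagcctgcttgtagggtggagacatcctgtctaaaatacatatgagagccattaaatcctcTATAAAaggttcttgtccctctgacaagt
Sprr2a1, chr3:92215585-92215834, + strand: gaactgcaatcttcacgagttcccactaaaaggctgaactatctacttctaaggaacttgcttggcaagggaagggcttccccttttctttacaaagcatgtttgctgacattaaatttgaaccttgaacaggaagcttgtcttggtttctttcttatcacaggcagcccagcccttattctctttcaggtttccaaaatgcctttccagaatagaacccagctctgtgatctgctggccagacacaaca
Sprr2d, chr3:92338890-92339139, + strand: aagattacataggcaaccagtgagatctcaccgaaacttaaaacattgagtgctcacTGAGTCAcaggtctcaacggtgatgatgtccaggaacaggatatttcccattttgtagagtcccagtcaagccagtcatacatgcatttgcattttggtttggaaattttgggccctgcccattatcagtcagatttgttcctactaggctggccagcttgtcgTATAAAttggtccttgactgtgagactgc
Sprr1a, chr3:92485882-92486131, - strand: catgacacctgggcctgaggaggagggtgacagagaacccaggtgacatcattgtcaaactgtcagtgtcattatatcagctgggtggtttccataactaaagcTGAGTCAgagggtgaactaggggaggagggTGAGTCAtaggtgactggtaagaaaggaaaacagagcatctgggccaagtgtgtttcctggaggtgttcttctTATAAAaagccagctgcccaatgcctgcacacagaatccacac
Sprr1b, chr3:92438780-92439029, - strand: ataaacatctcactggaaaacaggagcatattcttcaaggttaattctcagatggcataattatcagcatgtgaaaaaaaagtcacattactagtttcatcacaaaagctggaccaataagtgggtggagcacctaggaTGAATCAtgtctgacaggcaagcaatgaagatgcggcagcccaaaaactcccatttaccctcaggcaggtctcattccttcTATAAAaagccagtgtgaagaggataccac
Lce6a, chr3:92621661-92621910, - strand: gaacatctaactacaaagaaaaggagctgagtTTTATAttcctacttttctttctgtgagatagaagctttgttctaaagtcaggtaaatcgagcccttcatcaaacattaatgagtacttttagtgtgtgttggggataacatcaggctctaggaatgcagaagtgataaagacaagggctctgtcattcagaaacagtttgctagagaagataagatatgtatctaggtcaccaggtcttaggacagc

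The promoter table had an entry for 45 of the 49 members, and none for Evpl, Kprp, Lce1f and Ppl. TATAAA stood in the upstream window of 20 of the 45 (44.4%), against 12.4% of the 32851 promoters in the table. The AP-1 letters stood in 15 members (33.3%), against 6.75% of all promoters. They were found in 7 of 10 Sprr2 windows, in both Sprr1 windows and in that of Crnn, but in 0 of 13 Lce1 and 0 of 6 Lce3 windows. The 7 Sprr2 windows all held them 193 to 198 bases before the start, so these matches are not independent. Members were counted by gene and the background by promoter. The STAT letters TTCNNNGAA stood in 3 members (6.67%, against 7.02% of all promoters), and the GRHL letters AACCNGTT in 1 member, Rptn, against 1.79%. None of these motifs overlapped another in the windows shown. The window of Sprr2a1 held none of the 4 motifs and was identical to that of Sprr2a2 (100% over 250 bases), while Sprr1a and Sprr1b were 55.9% identical. These matches describe letters, and binding was not measured.

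To ask how Z1C2Z treatment bore on this gene set, each gene was tested between the groups with edgeR's quasi-likelihood test, adjusted over the 15147 genes tested. A gene was called when it differed by more than 1 on the log2 scale, in either direction, with an adjusted p under 0.05. By that rule 2 members were called (4.08%), Crnn higher and Sprr2a1 lower in the treated samples, against 3.4% of all genes tested. In each direction 1 member was called, where 2.15% of all genes were called higher and 1.25% lower. With no fold threshold, 4 members passed (8.16%), as against 8.13% of all genes: Crnn, Ppl and Evpl rose and Sprr2a1 fell (background 4.28% higher and 3.85% lower). The groups did not overlap for 5 members (10.2%), against 17.3% of all genes: Crnn, Ppl and Evpl were higher (background 8.45%) and Sprr2a1 and Sprr2d lower (background 8.82%). The share of members called was thus close to that of all genes. An unadjusted p under 0.05 was reached by 15 members (30.6%), against 28% of all genes.

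The median log2 fold change of the 49 members was 0.19, beside 0.01 over all genes, and 30 members had values above 0 and 19 below. Summed over the members, the level was 4877 to 5917 CPM in the controls and 5634 to 7117 CPM in the treated samples. The direction ran by family. All 14 Lce1 genes, Lce6a, Sprr4, 8 of the 9 single genes and 4 of the 5 S100-fused genes had values above 0, while all 6 Lce3 genes, 9 of the 10 Sprr2 genes and Sprr3 had values below 0. Most of these values did not pass the test singly. The genes of a family were measured in the same libraries and some of them share stretches of sequence, so they are not independent measurements.

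**Figure D1:**
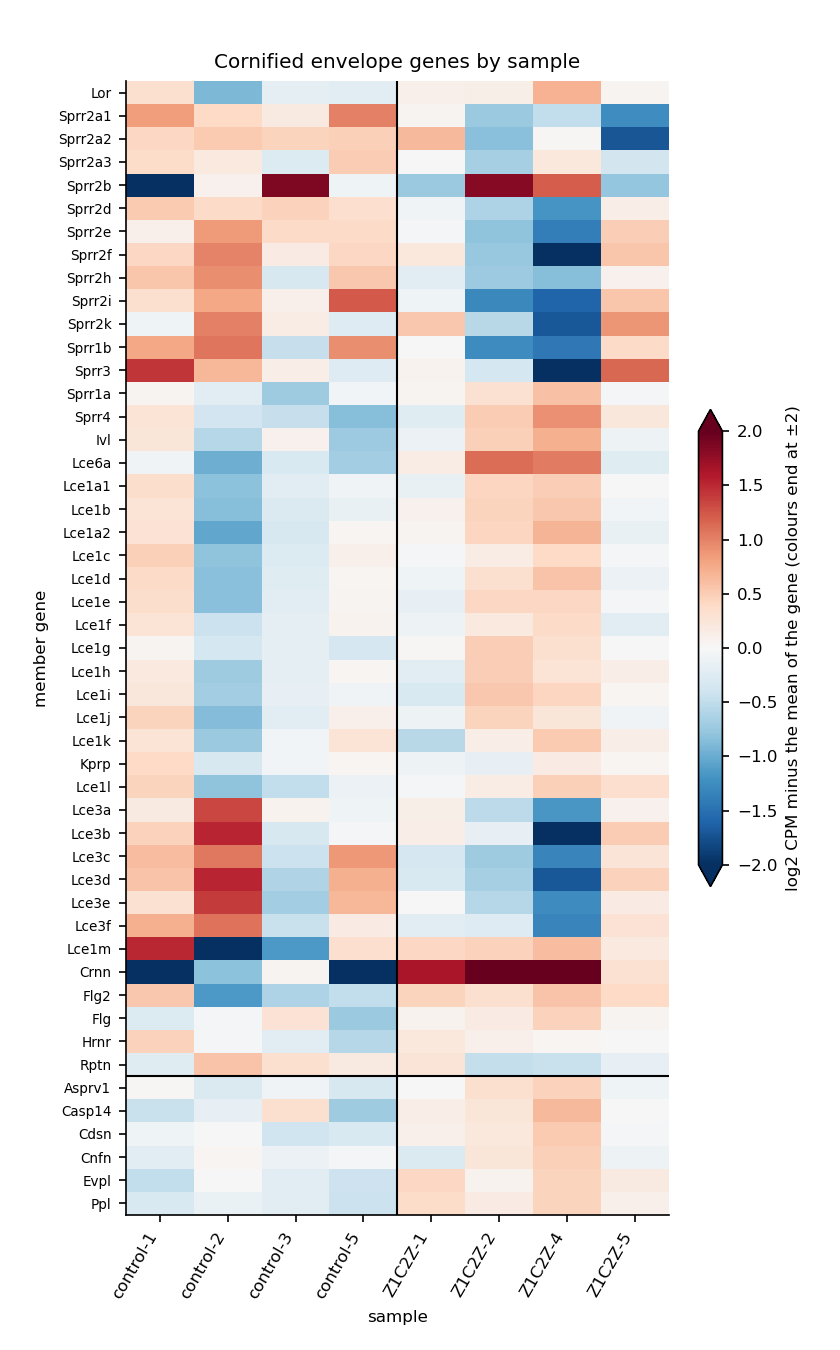
Heat map of the 49 genes (rows, the 43 on chromosome 3 in chromosomal order and the other 6 below the line) in the 8 samples (columns, controls left of the line), coloured by log2 CPM minus the gene's mean over the samples. Lce1 genes are low in control-2, Lce3 genes are high in control-2 and low in Z1C2Z-4, and Crnn is higher in the 4 treated samples than in the 4 controls.

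Among the scaffold genes, Ppl and Evpl rose. Ppl stood at 206, 233, 220 and 189 CPM in controls 1, 2, 3 and 5, and at 329, 286, 345 and 272 CPM in treated samples 1, 2, 4 and 5. Every treated sample lay above every control, and the groups were tight. The means were 212 ± 18.9 and 308 ± 34.6 CPM (SD, n = 4 each), which differed by 0.54 on the log2 scale (SE 0.11, edgeR adjusted p = 0.0303). Evpl, its plakin partner, stood at 78.2, 111, 95.2 and 83 CPM in the controls and at 148, 116, 151 and 126 CPM in the treated samples, in the same order of samples. The groups again did not overlap, though control-2 and Z1C2Z-2 were close. Its log2 fold change was 0.56 (SE 0.14, edgeR adjusted p = 0.0422). Ivl, the third scaffold gene, ran from 98 to 192 CPM in the controls and from 150 to 264 CPM in the treated samples, which overlapped (log2 fold change 0.47, SE 0.26, edgeR adjusted p = 0.282).

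Both plakin changes were under the fold threshold, and whether they passed depended on the libraries kept. Over 14 alternative fits their log2 fold changes ran from 0.48 to 0.59 for Ppl and from 0.48 to 0.66 for Evpl. Without control-5 or treated sample 1, 2 or 4 no gene of the whole table passed, and without control-2 only 123 did. With 1 library left out at a time, the adjusted p of Ppl stayed under 0.05 without control-1, control-3 or Z1C2Z-5 and was 0.0585 to 0.0929 without control-2 or control-5 or without treated sample 1, 2 or 4. That of Evpl stayed under 0.05 only without Z1C2Z-5 (0.0433) and reached 0.0578 to 0.121 without any other library. Without Z1C2Z-2 and Z1C2Z-4 together, the log2 fold changes were 0.50 and 0.57 and the adjusted p 0.280 for both.

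None of the other single genes passed by edgeR, and all but Kprp had values above 0. Lor stood at 83.7 to 196 CPM in the controls and at 162 to 255 CPM in the treated samples, of which Z1C2Z-4 was the highest (log2 fold change 0.45, SE 0.25, edgeR adjusted p = 0.263). Casp14, the protease of the cornified layer, stood at 325 ± 103 and 451 ± 91.8 CPM (SD, n = 4), 0.47 higher on the log2 scale (edgeR adjusted p = 0.203). Asprv1, the retroviral-like protease that cleaves profilaggrin, stood at 544 ± 64.2 and 693 ± 126 CPM (0.35 on the log2 scale, edgeR adjusted p = 0.155). Cdsn, which holds corneocytes together at corneodesmosomes, ranged from 200 to 260 CPM in the controls and from 259 to 376 CPM in the treated samples. Its groups overlapped by the narrow margin of control-2 and Z1C2Z-5 (0.41, SE 0.14, edgeR adjusted p = 0.0944), and it passed by DESeq2 (adjusted p = 0.0461). Cnfn, an envelope component, and Kprp, a keratinocyte proline-rich protein, lay nearest to 0 of the single genes, with log2 fold changes of 0.19 and -0.05 (95% intervals -0.17 to 0.55 and -0.38 to 0.29). Z1C2Z-4 had the highest treated value for all 9 single genes and the highest of all 8 samples for 8 of them. Summed over the 9 genes, the level was 1632 to 2056 CPM in the controls and 2116 to 3048 CPM in the treated samples, which did not overlap. Singly, only Ppl and Evpl of the 9 did not overlap, and no background share was computed for such sums.

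**Figure D2:**
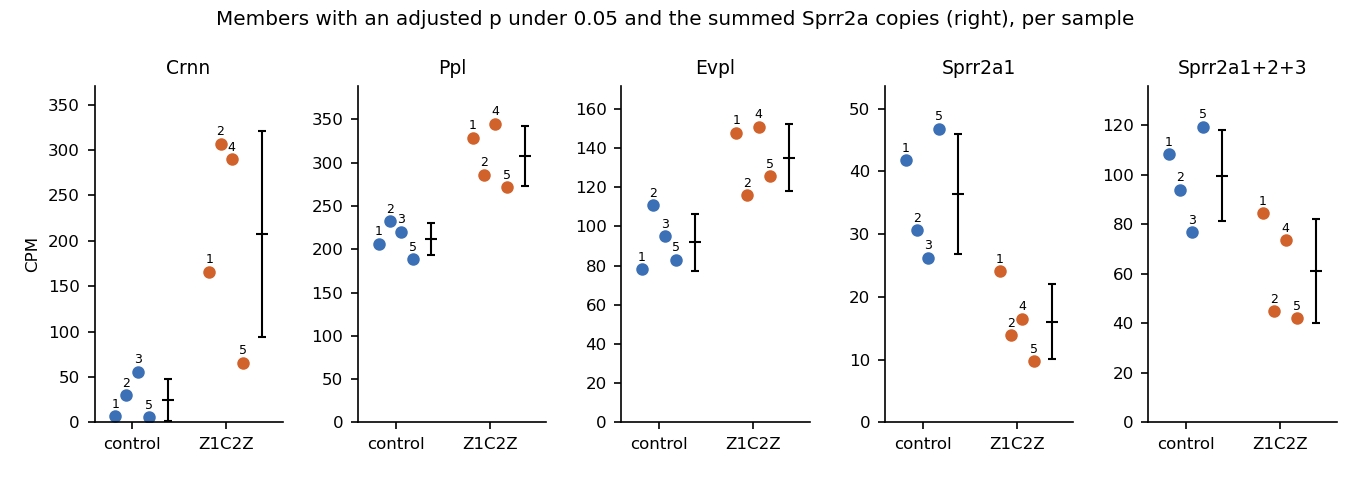
CPM (vertical axes, each from 0) of the 4 members with an adjusted p under 0.05 and of the summed counts of Sprr2a1, Sprr2a2 and Sprr2a3, in control (blue) and Z1C2Z (orange) samples, numbered as in the text, with mean and SD in black (n = 4). The groups of Crnn, Ppl, Evpl and Sprr2a1 do not overlap, and those of the summed copies do.

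Crnn, which encodes cornulin, an S100-fused protein of squamous epithelia, had the largest change of the 49 genes in either direction. It stood at 6.71, 30.1, 55.7 and 6.03 CPM in controls 1, 2, 3 and 5, and at 166, 307, 290 and 65.9 CPM in treated samples 1, 2, 4 and 5. The controls spread over about an order of magnitude, and control-3 lay just under Z1C2Z-5. The means were 24.6 ± 23.6 and 207 ± 113 CPM (SD, n = 4), 8.40-fold higher in the treated samples, with a log2 fold change of 3.07 (SE 0.78, edgeR adjusted p = 0.0465). An exact two-sided permutation test gave p = 0.0286, the smallest that 4 samples against 4 allow. Groups that do not overlap always give this value, and 17.3% of all genes tested did not overlap.

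Markers of the hair shaft and inner root sheath moved with Crnn. Of the 19 genes of that list, 17 were called higher and 0 lower, with a median log2 fold change of 2.82, and none was at 0. Hoxc13, a regulator of hair keratins, rose by 2.11 (edgeR adjusted p = 0.0299), Krt75, Krt28, Krt35, Krt85 and Krt73 by 1.87 to 2.70, and the abundant Krt71 and Krt25 by 2.48 and 2.45. Their summed level was 605, 1687, 2725 and 543 CPM in the controls and 6718, 13741, 12640 and 3300 CPM in the treated samples. The 8 samples had the same order for this sum as for Crnn. The part of hair follicle content in the change of Crnn was not tested. With 1 library left out at a time, the adjusted p of Crnn was 0.0328 without control-3 and 0.0278 without Z1C2Z-5, and 0.0593 to 0.125 without control-1, control-2 or control-5 or without treated sample 1, 2 or 4. Without Z1C2Z-2 and Z1C2Z-4 together, the log2 fold change was 2.23 (edgeR adjusted p = 0.361).

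The other S100-fused genes did not pass. Flg, whose product filaggrin bundles keratin filaments, stood at 391 ± 112 CPM in the controls and 495 ± 66.1 CPM in the treated samples (SD, n = 4; log2 fold change 0.34, edgeR adjusted p = 0.299). Hrnr, hornerin, differed by 0.13 on the log2 scale (edgeR adjusted p = 0.690). Flg2 stood at 432, 135, 193 and 211 CPM in the controls and at 408, 372, 440 and 391 CPM in the treated samples. Control-1 thus lay among the treated samples, and the other controls lay below all of them. With all libraries the log2 fold change of Flg2 was 0.73 (SE 0.31, edgeR adjusted p = 0.158), and without control-1 it was 1.16 (edgeR adjusted p = 0.0266). That was the 1 of 14 alternatives in which Flg2 passed. Over the 14 its log2 fold change ran from 0.53 to 1.16, with an adjusted p (edgeR or DESeq2) of up to 0.494. Rptn, repetin, was the member of this group with a value below 0. It stood at 734, 1288, 1081 and 984 CPM in the controls and at 1040, 621, 635 and 773 CPM in the treated samples, which overlapped (log2 fold change -0.41, SE 0.21, edgeR adjusted p = 0.231).

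The Sprr genes split within the family. Sprr1a stood at 470, 386, 277 and 435 CPM in the controls and at 467, 556, 676 and 444 CPM in the treated samples. Sprr1b, which lies on the other side of Sprr3, stood at 197, 242, 83.1 and 219 CPM in the controls and at 114, 47.8, 42.4 and 149 CPM in the treated samples. For each gene control-3 had the lowest control value, and Z1C2Z-4 had the highest treated value for Sprr1a and the lowest for Sprr1b. The log2 fold changes were 0.45 (SE 0.19, edgeR adjusted p = 0.156) and -1.07 (SE 0.45, edgeR adjusted p = 0.162), and the difference between the genes was not tested. Without Z1C2Z-2 and Z1C2Z-4 they were 0.22 and -0.50 (edgeR adjusted p = 0.681 and 0.620). Sprr4 stood at 74.9 ± 25.8 and 122 ± 39.8 CPM (SD, n = 4; log2 fold change 0.71, edgeR adjusted p = 0.141). Sprr3 was scarcely present, at 0.282 to 1.03 CPM in the controls and at most 0.832 CPM in the treated samples, and Z1C2Z-4 held 0 counts, where 3 counts would be 0.0753 CPM. At this depth no difference in Sprr3 was detectable.

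Sprr2a1 fell. It stood at 41.8, 30.7, 26.3 and 46.8 CPM in controls 1, 2, 3 and 5, and at 24.1, 13.9, 16.5 and 9.76 CPM in treated samples 1, 2, 4 and 5. The groups did not overlap, though control-3 and Z1C2Z-1 were close. The log2 fold change was -1.18 (SE 0.28, edgeR adjusted p = 0.0397), with means of 36.4 ± 9.54 and 16.1 ± 6.05 CPM (SD, n = 4). This gene is a near-identical copy of Sprr2a2, with which it also shared its upstream window. Of its stretches of 50 bases, 96.3% also occur in another gene, and 92.5% occur in Sprr2a2. How reads shared between the copies were counted is not given in the sources used here, so the value of Sprr2a1 alone is uncertain.

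Sprr2a2 stood at 20.6 to 22.2 CPM in the controls and at 24.2, 8.58, 15.7 and 4.69 CPM in the treated samples, with Z1C2Z-1 above every control (log2 fold change -0.69, edgeR adjusted p = 0.302). Sprr2a3, which shares 61.1% of its stretches of 50 bases, was at -0.39 on the log2 scale (edgeR adjusted p = 0.274). When the counts of the 3 copies were summed, the level was 108, 94, 76.8 and 119 CPM in the controls and 84.4, 44.9, 73.6 and 42.1 CPM in the treated samples. The groups then overlapped at control-3 and Z1C2Z-1, and the log2 fold change was -0.70 (SE 0.24, edgeR adjusted p = 0.0972). The call was therefore lost when the copies were counted together. For Sprr2a1 alone, the adjusted p was 0.0375 without control-3 and 0.0400 without Z1C2Z-5, and 0.0561 to 0.120 without control-1, control-2 or control-5 or without treated sample 1, 2 or 4. Without Z1C2Z-2 and Z1C2Z-4 together, it was 0.341, with a log2 fold change of -1.10.

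Sprr2d, which shares 4.27% of its stretches of 50 bases with another gene, was the most abundant Sprr2 gene per length. It stood at 124, 111, 118 and 108 CPM in the controls and at 81.5, 56.0, 37.8 and 94 CPM in the treated samples. The groups did not overlap, and the treated samples were the more spread (log2 fold change -0.78, SE 0.24, edgeR adjusted p = 0.0789). Sprr2h and Sprr2i had log2 fold changes of -0.87 (edgeR adjusted p = 0.0849) and -1.02 (edgeR adjusted p = 0.184), with overlapping groups. Sprr2b alone had a value above 0 (0.29, SE 0.90), and it ranged from 0.284 to 12.9 CPM within the controls. Summed over the 10 Sprr2 genes, the level was 341, 364, 292 and 367 CPM in the controls and 249, 159, 154 and 248 CPM in the treated samples. Z1C2Z-2 and Z1C2Z-4 were the 2 lowest treated samples for 6 of the 10 genes, against 31.7% of all genes tested. Without them 9 of the 10 values lay below 0, with a median of -0.40, and Sprr2d was at -0.39 (edgeR adjusted p = 0.280).

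**Figure D3:**
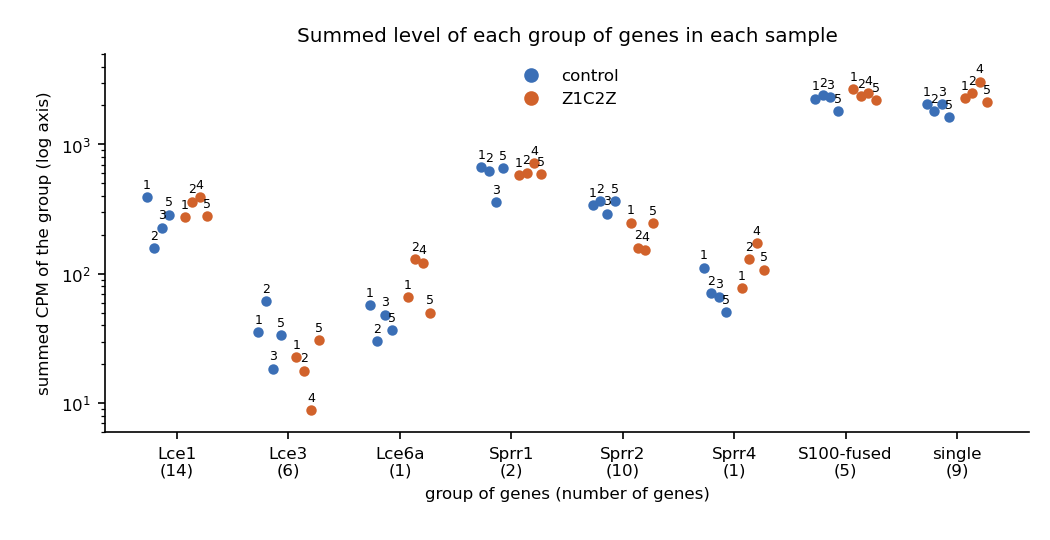
Summed CPM (log axis) of 8 groups of members in each control (blue) and Z1C2Z (orange) sample, numbered as in the text, with Sprr3 left out. The Sprr2 sum runs from 292 to 367 CPM in the controls and from 154 to 249 CPM in the treated samples, the sum of the 9 single genes from 1632 to 2056 and from 2116 to 3048 CPM, and the groups overlap for the other 6. No background share was computed for sums.

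The Lce1 genes moved as a block among the samples. Their log2 fold changes ran from 0.11 for Lce1k to 0.47 for Lce1b and Lce1a2, and 0 of 14 passed by edgeR at an adjusted p under 0.05 (0 by DESeq2, and 1, Lce1g, at an unadjusted p under 0.05). Their summed level was 392.4, 157, 228 and 287 CPM in the controls and 273, 362, 390 and 280 CPM in the treated samples. Control-1 was the highest control and control-2 the lowest of all 8 samples for each of the 14 genes, and the sums of the controls spanned those of the treated samples. For 13 of the 14 genes the 2 highest treated samples were Z1C2Z-4 and Z1C2Z-2, where 32.5% of all genes had that order. Without these samples 10 of the 14 values lay above 0, with a median of 0.04. Leaving out the highest treated samples lowers such values by construction. Lce1a1 was the most abundant per length, with 53.1 ± 16.9 CPM per kb of exon in the controls and 67.9 ± 14.5 CPM per kb in the treated samples (SD, n = 4). Lce1m, which lies apart from the others beyond the Lce3 genes, varied most, from 4.69 to 70.4 CPM in the controls, while the treated samples ran from 28.5 to 38.1 CPM.

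The Lce3 genes, whose human counterparts are known for their induction in psoriasis and after injury, had values below 0 in all 6 cases. The log2 fold changes ran from -0.74 for Lce3b to -1.11 for Lce3d, and 0 of 6 passed by edgeR at an adjusted p under 0.05 (Lce3c passed by DESeq2 and was the 1 gene with an unadjusted p under 0.05 by edgeR). Lce3d stood at 6.71, 13.1, 2.95 and 7.41 CPM in the controls and at 3.64, 2.82, 1.36 and 6.21 CPM in the treated samples (SE 0.51, edgeR adjusted p = 0.192). Lce3c was at -1.06 on the log2 scale (SE 0.39, edgeR adjusted p = 0.118). Control-2 was the highest and Z1C2Z-4 the lowest of the 8 samples for each of the 6 genes. Control-2 was thus at opposite ends for the Lce1 and Lce3 genes, as was Z1C2Z-2 with Z1C2Z-4, which were the 2 lowest treated samples for all 6 Lce3 genes. The summed level was 35.5, 61.9, 18.6 and 33.5 CPM in the controls and 22.7, 17.9, 8.86 and 30.6 CPM in the treated samples, which overlapped. All 6 values stayed below 0 in each of the 15 fits, with medians of -0.48 without Z1C2Z-2 and Z1C2Z-4 and -0.51 without control-2. Apart from Lce1m, the Lce1 and Lce3 genes share sequence within each family. Up to 27.1% of the stretches of 50 bases of an Lce1 gene occur in another gene. For an Lce3 gene the share was up to 49.3%.

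Lce6a, the single gene of its group, stood at 57.1, 30.1, 48.4 and 36.8 CPM in the controls and at 66.1, 129, 122 and 50.2 CPM in the treated samples. Z1C2Z-2 and Z1C2Z-4 stood apart from the other samples, and Z1C2Z-5 lay below control-1. The log2 fold change was 1.09 (SE 0.32, edgeR adjusted p = 0.0672), and 0.43 without those 2 samples (edgeR adjusted p = 0.511). Unlike those of the Lce1 and Lce3 genes other than Lce1m, its stretches of 50 bases occur in no other gene.

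Along chromosome 3 the signs fell into 10 runs over the 43 genes. From the Lor end, Lor was above 0, Sprr2a1 to Sprr2a3 below, Sprr2b above, and Sprr2d to Sprr2k, Sprr1b and Sprr3 below. Then came a long run above 0 from Sprr1a through Sprr4, Ivl, Lce6a and the Lce1 genes to Lce1k. Kprp lay below 0 and Lce1l above, the 6 Lce3 genes below, and Lce1m, Crnn, Flg2, Flg and Hrnr above, with Rptn below at the far end. The 6 members elsewhere in the genome all had values above 0, from 0.19 for Cnfn to 0.56 for Evpl.

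**Figure D4:**
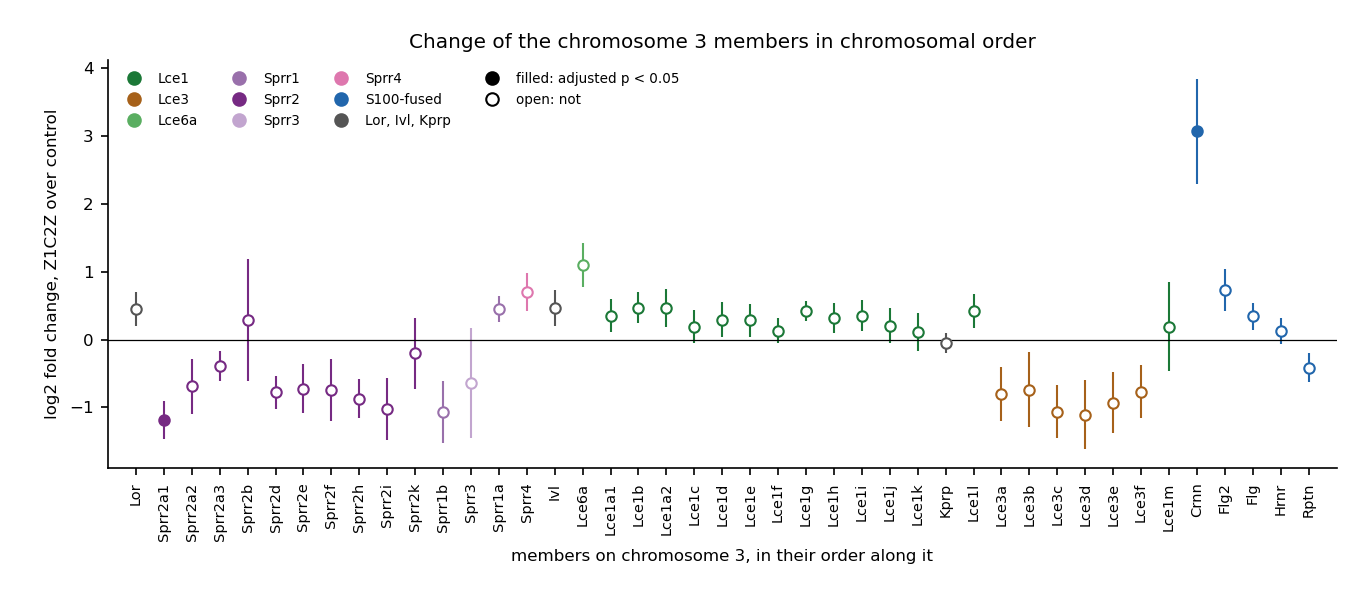
Log2 fold change of Z1C2Z over control (vertical axis, bars are SE) for the 43 members on chromosome 3, in their order along it (horizontal axis) and coloured by family, filled where the adjusted p was under 0.05. Only Sprr2a1 and Crnn are filled, and Sprr2 and Lce3 genes lie mostly below 0 and Lce1 genes above it.

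Per kb of annotated exon, the levels in the controls ran from 0.467 CPM for Sprr3 to 486 ± 105 CPM for Sprr1a (SD, n = 4). Asprv1 (352 ± 41.5 CPM per kb), Rptn (246 ± 55.4) and Sprr1b (223 ± 85.0) were also high, and the last pair did not differ beyond their spread. Sprr4 came to 324 ± 112 CPM per kb, although its annotated exon is only 231 bases long. Sprr2d came to 169 ± 9.90 CPM per kb and Casp14 to 136 ± 42.9. In the treated samples the order was Sprr1a at 665 ± 131, Sprr4 at 529 ± 172 and Asprv1 at 448 ± 81.3 CPM per kb. Crnn moved from 13.2 ± 12.6 to 111 ± 60.7 CPM per kb, which placed it beside Sprr1b at 106 ± 62.5. The exon lengths are those of GENCODE and may differ from the annotation behind the counts.

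The enzymes that cross-link and process envelope proteins form a list of 15 genes, of which 3 were called higher and 0 lower (median log2 fold change 0.24). St14, the membrane protease matriptase, stood at 47.3 to 60.1 CPM in the controls and at 75.4 to 129 CPM in the treated samples (1.03, SE 0.17, edgeR adjusted p = 0.0299). Padi1 and Padi3, which convert arginine to citrulline in filaggrin and trichohyalin, rose by 2.73 (SE 0.71, edgeR adjusted p = 0.0485) and 2.62 (SE 0.69, edgeR adjusted p = 0.0491) on the log2 scale. For Padi1 the groups overlapped narrowly, with control-3 at 8.48 CPM and Z1C2Z-5 at 8.40 CPM. Padi3 had values of 6.29, 28.6, 46.3 and 7.01 CPM in the controls and 121, 198, 173 and 50.7 CPM in the treated samples, with control-3 and Z1C2Z-5 nearest to each other, as for Crnn. The abundant members of the list, Klk7 and Spink5, a corneodesmosome protease and its inhibitor, had log2 fold changes of 0.25 and -0.17 (edgeR adjusted p = 0.274 and 0.679). Tgm1, the transglutaminase that cross-links the scaffold, differed by -0.07 (95% interval -0.43 to 0.29) and was named after its value was seen.

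Of the other 19 genes of the epidermal differentiation complex, 16 could be tested and Lelp1, Smcp and S100a5 could not. S100a3, Tchhl1 and S100a7a were called higher and 0 were called lower by edgeR (median 0.09), and S100a14 also rose (0.76, edgeR adjusted p = 0.0465). S100a3, a calcium-binding protein of the hair cuticle, rose by 3.31 (SE 0.80, edgeR adjusted p = 0.0411). Its groups overlapped, with control-3 at 89.6 CPM and Z1C2Z-5 at 87.3 CPM. Tchhl1, trichohyalin-like, rose by 3.70 (SE 0.96, edgeR adjusted p = 0.0482), from 3.66 to 74.9 CPM in the controls to 78.7 to 570 CPM in the treated samples. S100a7a rose by 1.81 (edgeR adjusted p = 0.0391), with control-3 at 13.8 CPM above Z1C2Z-5 at 12.5 CPM. Tchh, trichohyalin of the inner root sheath and the most abundant of the list, stood at 169 to 1411 and 1729 to 5645 CPM and did not pass (2.62, SE 0.73, edgeR adjusted p = 0.0568). S100a11 was at -0.35 on the log2 scale (edgeR adjusted p = 0.0875). DESeq2 called 6 genes of the list, adding Tchh and the alarmins S100a8 and S100a9, whose edgeR values, looked at after that call, were -1.27 and -1.36 (adjusted p = 0.0804 and 0.0795).

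The keratins of the spinous and cornified layers had a median of 0.42 over 6 genes. Krt2 was the 1 gene called, higher, at 0.141 to 0.496 CPM in the controls and 0.693 to 4.59 CPM in the treated samples (3.26, SE 0.69, edgeR adjusted p = 0.0325), which is a low level throughout. Krt1 and Krt10 had log2 fold changes of 0.27 (edgeR adjusted p = 0.337) and 0.54 (edgeR adjusted p = 0.257). Of the 4 wound-activated keratins 0 were called by edgeR or DESeq2, and 0 had an unadjusted p under 0.05, against 28% of all genes (median -0.67). Krt6a and Krt6b stood at -0.73 (edgeR adjusted p = 0.273) and -0.74 (edgeR adjusted p = 0.328), with Z1C2Z-2 and Z1C2Z-4 the lowest samples for both. Krt16 was at -0.61 (edgeR adjusted p = 0.264). Krt17 went the other way, at 0.28 (edgeR adjusted p = 0.312), with Z1C2Z-4 and Z1C2Z-2 the highest samples. Among 12 desmosome genes 0 were called by edgeR or DESeq2, 2 had an unadjusted p under 0.05, and Pkp3, plakophilin 3, rose at any fold (0.62, SE 0.13, edgeR adjusted p = 0.0336, median of the list 0.25). Dsp and Perp, its most abundant members, had values of 0.32 (edgeR adjusted p = 0.199) and 0.31 (edgeR adjusted p = 0.307).

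Of 19 genes of the lipid envelope 0 were called by edgeR or DESeq2 and 6 had an unadjusted p under 0.05, with a median of 0.03. Over all genes tested 28% had an unadjusted p under 0.05, the share to set beside such counts. Ugcg, which makes glucosylceramide, fell at any fold (-0.54, SE 0.12, edgeR adjusted p = 0.0362). The abundant Elovl4 and Fa2h, which act in the synthesis of very long chain and hydroxylated ceramides, had values of 0.22 (edgeR adjusted p = 0.503) and -0.07 (edgeR adjusted p = 0.867). Of 18 regulators of terminal differentiation 0 were called by edgeR and 12 had an unadjusted p under 0.05 (median -0.06), while DESeq2 called Fosl1 and Fos lower. Grhl1 (0.78, SE 0.15, edgeR adjusted p = 0.0303) and Zfp750 (0.61, SE 0.15, edgeR adjusted p = 0.0449) rose at any fold and Nfe2l2, the gene for the oxidative stress factor Nrf2, fell (-0.48, SE 0.09, edgeR adjusted p = 0.0299). Klf4 and Maf had values of -0.21 (edgeR adjusted p = 0.270) and 0.31 (edgeR adjusted p = 0.142). The AP-1 genes Fosl1 and Fos, chosen after their values were seen, had log2 fold changes of -2.50 (SE 0.66, edgeR adjusted p = 0.0508) and -1.45 (SE 0.43, edgeR adjusted p = 0.0681). The AP-1 genes Jun and Junb of the same list were at -0.08 and -0.57 (edgeR adjusted p = 0.620 and 0.140). Grhl3 was at -0.43 (edgeR adjusted p = 0.155), opposite in sign to Grhl1.

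**Figure D5:**
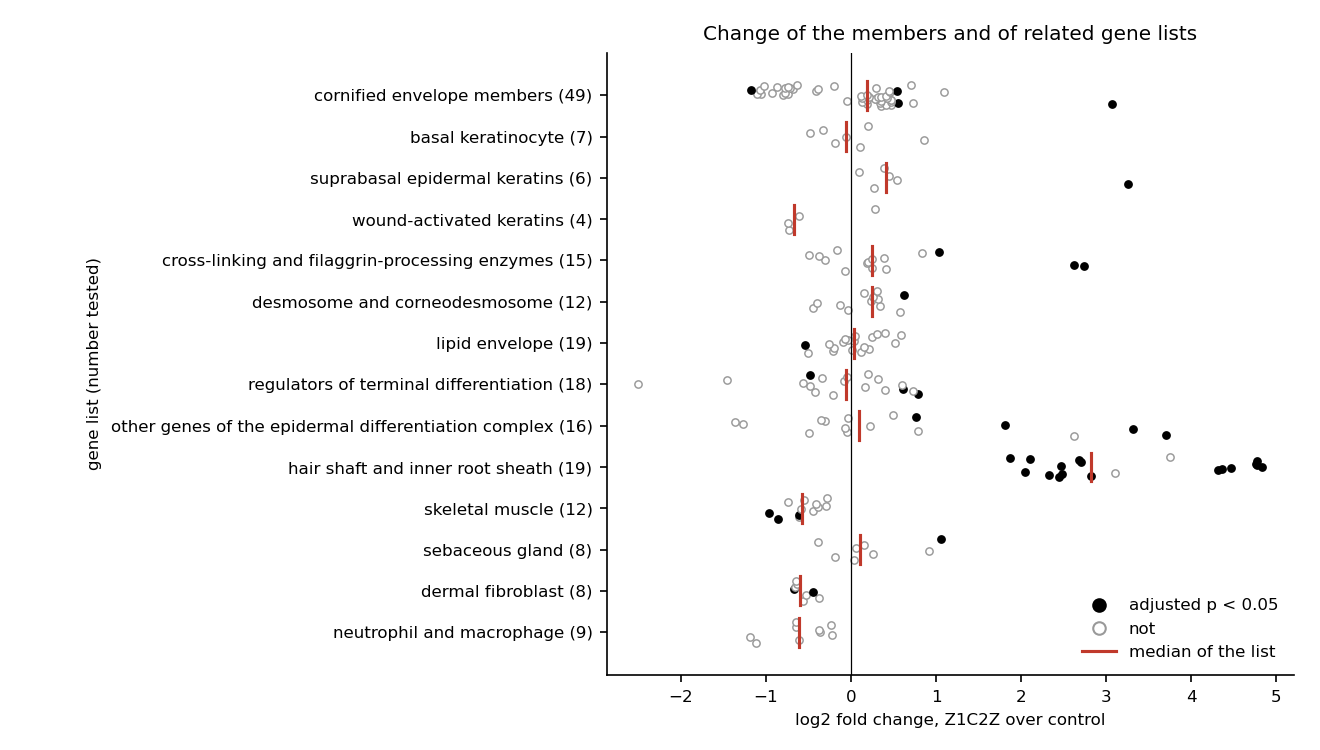
Log2 fold change of Z1C2Z over control (horizontal axis) for each gene of the members and of 13 related lists (rows, with the number tested), filled where the adjusted p was under 0.05, with each list's median in red. The members centre on 0.19, the hair shaft and inner root sheath genes on 2.82, and the muscle, fibroblast and leukocyte markers below 0.

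Markers of other cells in the tissue were set beside these results, again with 28% of all genes at an unadjusted p under 0.05. The 7 basal keratinocyte genes had a median of -0.06 and 0 were called by edgeR or DESeq2 (1 at an unadjusted p under 0.05), with sums of 4576 to 7255 CPM in the controls and 4946 to 6205 CPM in the treated samples. Of 8 sebaceous gland genes 1, Mc5r, was called higher (1.05, edgeR adjusted p = 0.0378, median of the list 0.11), and the abundant Scd1 and Far2 had values of 0.03 and 0.16, with sums of 2409 to 3754 and 2462 to 3452 CPM. The 12 skeletal muscle genes all had values below 0 (median -0.57) and 0 were called by edgeR or DESeq2 (7 at an unadjusted p under 0.05), while Acta1 (-0.86, edgeR adjusted p = 0.0303), Myh1 (-0.61, edgeR adjusted p = 0.0341) and Myh2 fell at any fold, with sums of 3842 to 7299 and 3316 to 3698 CPM. The 8 fibroblast genes also all had values below 0 (median -0.60) and 0 were called by edgeR or DESeq2 (8 at an unadjusted p under 0.05). Dcn and Lum fell at any fold, and the abundant Col3a1 and Col1a2 had values of -0.53 and -0.37. Their sums were 54986 to 78204 and 43169 to 60657 CPM. Of 12 neutrophil and macrophage genes 9 could be tested, Ly6g, Mpo and Elane could not, and 0 were called by edgeR or DESeq2 (3 at an unadjusted p under 0.05), with a median of -0.62. Lyz2 and Mrc1, the most abundant, had values of -0.24 and -0.65, and the sums were 2288 to 2623 and 1314 to 2314 CPM. No list, the hair genes described beside Crnn included, was used to adjust the members' values, and their part in those values was not tested.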

How the data were processed

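Transcriptome sequencing covered wound skin of 4 control and 4 Z1C2Z samples. The authors deposited 1 table with a raw, unnormalized count of reads for each of 18540 genes. Per the labels, RNA was extracted with Trizol, depleted of rRNA and made into libraries with dUTP in the second strand, whereas the methods name a column kit. The aligner, counting program, genome build, annotation and strand setting are not given in the sources used here, and the counting decides how reads shared by Sprr2 or Lce copies were assigned. The labels call the treated samples shiyan, the methods for the sequencing say ZCZ, and Z1C2Z is from the study's sample names with the same numbers.

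The tests ran in edgeR 4.0.16 under R 4.3.3. Genes kept by filterByExpr (15147) were normalized by TMM and tested with the quasi-likelihood test without covariates, with Benjamini-Hochberg adjustment. Log2 CPM used a prior count of 2. SE came from the F statistic. Exact permutation tests covered 70 arrangements. Totals of 28856790 to 38974888 counts left 10 counts as a level with large counting error. The table held 0 unused columns of per-sample values. Shared stretches of 50 bases and exon lengths came from GENCODE transcripts, promoters and gene order from RefSeq.

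The members and lists were chosen with earlier results of these data known. Named genes were the called members, the 2 most abundant of each family, all single and S100-fused genes, and for each list its called genes (at most 6) and 2 most abundant. Any other gene named was chosen after its values were seen. The steps were tested on simulated counts. Alternatives were DESeq2 1.42.0, RLE size factors, no low-count filter, a mean of at least 10 counts, the sample number as a block, each sample left out, Z1C2Z-2 and Z1C2Z-4 left out, and, chosen after seeing the data, summed Sprr2a copies.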

Additional observations from a re-analysis of the deposited data

Results flagged for a closer look

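Values per group were examined for 1 sample far from the other 3, over 89 genes (178 groups of 4), and 5 groups had such a sample, where chance gives about 5 in 100. Lor stood at 254.7 CPM in Z1C2Z-4, against 162 to 170 CPM in the other treated samples. Krt10 stood at 7189 CPM in the same sample, against 4706 to 4833 CPM. Elovl4 was low in Z1C2Z-1, at 1533 CPM against 1944 to 2036 CPM. Among the controls, Maf was low in control-5, at 149.8 CPM against 203 to 214 CPM, and Col3a1 was low in control-1, at 23733 CPM against 33745 to 35558 CPM.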

How the results depend on the processing

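With 8 samples, the calls near the threshold depended on the fit. DESeq2 called 490 genes higher and 345 lower, against 326 and 189 with edgeR. Over all genes it passed 2756 at any fold, against 1231 with edgeR. Of the members it called 2 higher and 2 lower, against 1 and 1. At any fold it passed 9 members, against 4, namely Cdsn, Crnn, Evpl, Lce3c, Lce6a, Ppl, Sprr2a1, Sprr2d and Sprr2h. It called 12 genes of the cornification lists, against 7. RLE size factors, no low-count filter and a mean of at least 10 counts left the same 4 members at any fold.

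Without Z1C2Z-2 and Z1C2Z-4, edgeR called 0 genes higher and 0 lower at an adjusted p under 0.05, hence 0 members, 0 cornification genes and 0 hair genes, while 1980 genes, 5 of them members, had an unadjusted p under 0.05. Leaving out 1 library at a time gave 0 to 463 genes higher, 0 to 316 lower, 0 to 2 members higher, 0 to 3 lower and 0 to 8 at any fold. It gave 5 to 14 members whose groups did not overlap, 0 to 9 cornification genes and 0 to 19 hair genes called. Groups with fewer samples separate more easily, and the share of all genes without overlap was not computed for these fits. The count without overlap is therefore not a result about the members. No gene passed without control-5 or without treated sample 1, 2 or 4, where edgeR had 3223, 4208, 3137 and 3100 genes at an unadjusted p under 0.05. Without control-2 edgeR passed 123 genes, 0 of them members (8 members at an unadjusted p under 0.05). Ppl, Evpl, Crnn and Sprr2a1 kept their direction in 14 of 14 alternatives, with adjusted p of 0.000344 to 0.280, 0.00427 to 0.280, 0.00207 to 0.361 and 0.000592 to 0.341. The cause of these differences was not tested.

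The sample numbers 1, 2 and 5 occur in both groups. Deviations from the group means correlated at -0.10, -0.06 and 0.32 for these numbers, so the numbers were not taken to pair the samples. With the number as a block, 1 member passed at any fold, Crnn, and members called lower fell to 0, with Sprr2a1 at an adjusted p of 0.0518 (17 members at an unadjusted p under 0.05). Control-3 and Z1C2Z-4 share their number with no other sample, so that fit compared the groups only within numbers 1, 2 and 5. The pairing check covered all genes tested, and 2 of its 3 same-number pairs were below 0.

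Values changed sign for Hrnr (-0.0038 to 0.34 with 1 library left out), Kprp (-0.15 to 0.092) and, without Z1C2Z-2 and Z1C2Z-4, Sprr3 (0.089) and Cnfn (-0.11). Hrnr was below 0 without control-5 (-0.0038), and Kprp above 0 without control-1 (0.092) and without Z1C2Z-2 (0.0029). Among the other members Lce1d, Lce1f, Lce1j, Lce1k, Lce1m, Sprr2b (-1.31 to 1.33) and Sprr2k (-0.61 to 0.43) changed sign in 1 to 4 of the 14 alternatives. None of these members passed in any of them. Counts of the Sprr2a copies cannot be separated here, and levels under 1 CPM, such as those of Sprr3, are limited by depth.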
